A study of Mus musculus with 16 samples.

Results

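The effect of losing the G protein-coupled estrogen receptor (GPER) that female and male cardiomyocytes had in common was measured on all 16 arrays of the series, 8 from GPER-knockout (GPER KO) mice and 8 from mice titled wild type (intact). Each array held RNA of ventricular cardiomyocytes from 1 mouse, with 4 mice in each combination of genotype and sex. For each of 17097 genes 1 genotype effect, GPER KO minus intact on the log2 scale, was fitted with sex as an additive term. A gene is called where its adjusted p (limma, Benjamini-Hochberg over all 17097 genes) was under 0.05. The labels give an age of 15 weeks to every mouse, whereas the methods of the study give a somewhat older range. The knockout is described as specific to cardiomyocytes. The Cre driver of that deletion, and whether the intact mice carried a Cre or floxed alleles, are not given in the sources used here. Hearts were digested with collagenase, and the cells were strained and spun but not sorted, so cells of other types can be present.

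GPER is a membrane receptor that binds estrogen and signals through G proteins, cyclic AMP and the epidermal growth factor receptor. Cardiomyocytes draw most of their energy from the oxidation of fatty acids. Under strain, ventricular cardiomyocytes are known to return to a fetal pattern of expression, with more natriuretic peptide and more beta-myosin heavy chain. The comparison addresses which of these genes moved with the genotype in both sexes, including genes whose shift is too small for 4 arrays against 4.

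GPER KO cardiomyocyte preparations had more transcript of the natriuretic peptides Nppa and Nppb and of the strain-induced Ankrd1 and Ccn2. They also had more of the inflammatory genes Fgl2 and Lgals3 and of the secreted factor Ndnf. They had less transcript of the amylase gene Amy1, of Ano10, Exoc2 and Ctnna3 and of enzymes that break down branched-chain amino acids and fatty acids. In all, 199 genes (1.16% of 17097) were called, 114 higher (0.667%) and 85 lower (0.497%) in GPER KO. The median absolute shift of the called genes was 0.38 log2, and 9 genes moved by more than 1 log2. Higher genes moved further than lower ones, with 42 of 114 above 0.5 log2 and 17 of 85 beyond -0.5 log2. Over all genes the median shift was 0.00 log2, with 49.1% of genes above intact and 50.9% below.

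Of the 199 genes, 17 were also called in each sex separately, 22 in females only and 61 in males only. The other 99 (0.579% of 17097), 44 higher and 55 lower, were called in neither sex alone. The comparison of 4 against 4 called 48 genes (0.281%) in females and 106 (0.62%) in males. All 199 genes had the same sign in both sexes, which selection on their mean favours. Over all genes, the effects in the 2 sexes correlated at r = 0.10, a description across genes, which are not independent replicates. For 34 of the 199 genes the difference between the sexes had an unadjusted p under 0.05. None of the 17097 genes passed for that difference after adjustment (limma, smallest adjusted p = 0.322), while 1875 (11% of genes) had an unadjusted p under 0.05. For the shared genotype effect, 1887 genes (11%) had an unadjusted p under 0.05. Another 37 genes were called in 1 sex, 9 in females and 28 in males, but not over all 16 arrays. For 35 of these 37 genes the unadjusted p of the difference between the sexes was under 0.05. Selection on a call in 1 sex and none over all 16 arrays favours such a difference.

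**Figure D1:**
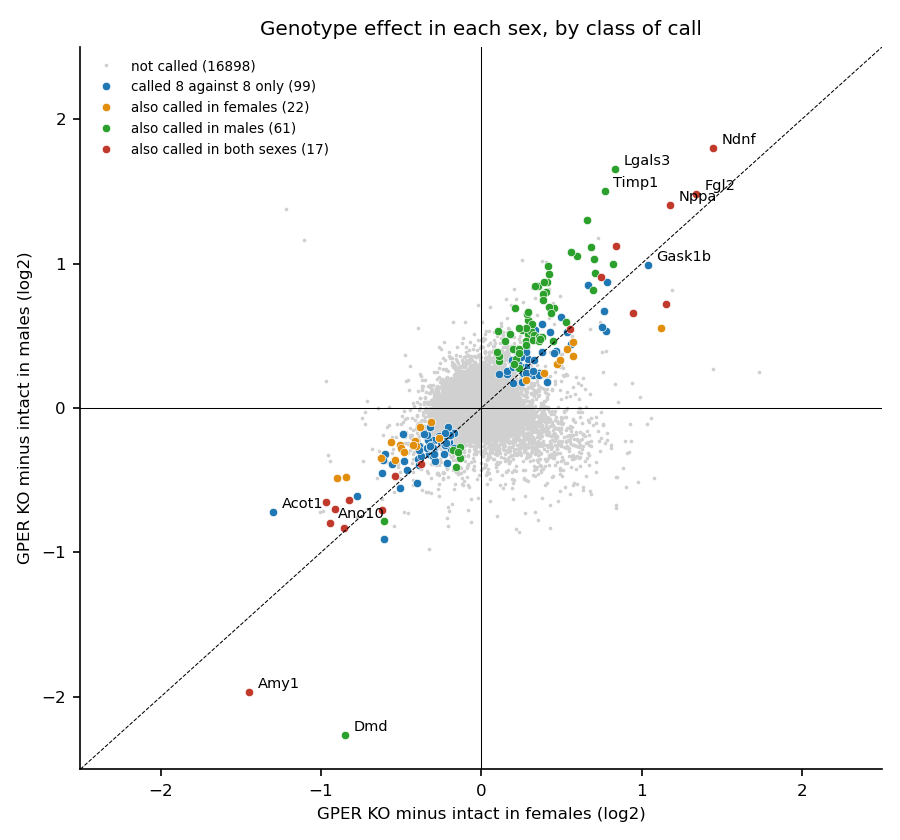
GPER KO minus intact (log2) for each gene, plotted as its male value (vertical) against its female value (horizontal), with a dashed line where both are equal. The 199 called genes have the same sign on both axes, which selection on their mean favours. The 99 genes called in neither sex alone (blue) lie mostly closer to the origin than the 17 called in both (red).

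Promoters of genes at the ends of this effect are printed here from RefSeq on build GRCm38.p6, each with 250 bases before and 50 after the annotated start. Nppa and Ankrd1 are load-responsive genes, Nppb is the partner of Nppa, and Amy1 had the largest fall. Capitals mark matches on either strand to any of 6 motifs whose letters are spelled out with their shares. None of these motifs overlap each other in the sequences printed. Nppa lies at chr4:148000472-148000771 (+), Nppb at chr4:147985650-147985949 (+), Ankrd1 at chr19:36119795-36120094 (-) and the first of 2 annotated starts of Amy1 at chr3:113577701-113578000 (-).
Nppa: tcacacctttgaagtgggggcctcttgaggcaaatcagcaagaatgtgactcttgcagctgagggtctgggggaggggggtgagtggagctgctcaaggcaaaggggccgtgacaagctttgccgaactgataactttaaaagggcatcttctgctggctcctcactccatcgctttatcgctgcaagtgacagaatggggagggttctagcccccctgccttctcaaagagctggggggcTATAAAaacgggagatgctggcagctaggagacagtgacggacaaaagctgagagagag
Nppb: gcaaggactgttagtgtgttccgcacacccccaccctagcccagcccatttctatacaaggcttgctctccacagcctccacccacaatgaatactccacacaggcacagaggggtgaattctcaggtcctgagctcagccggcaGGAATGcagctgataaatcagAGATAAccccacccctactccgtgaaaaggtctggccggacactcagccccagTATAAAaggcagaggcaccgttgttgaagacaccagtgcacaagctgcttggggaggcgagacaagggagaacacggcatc
Ankrd1: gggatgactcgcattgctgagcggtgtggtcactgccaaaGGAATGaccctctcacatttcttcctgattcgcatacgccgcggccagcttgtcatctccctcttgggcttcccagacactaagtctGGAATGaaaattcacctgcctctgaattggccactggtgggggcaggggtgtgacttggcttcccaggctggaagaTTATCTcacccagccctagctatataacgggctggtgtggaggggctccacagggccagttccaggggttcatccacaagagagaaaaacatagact
Amy1: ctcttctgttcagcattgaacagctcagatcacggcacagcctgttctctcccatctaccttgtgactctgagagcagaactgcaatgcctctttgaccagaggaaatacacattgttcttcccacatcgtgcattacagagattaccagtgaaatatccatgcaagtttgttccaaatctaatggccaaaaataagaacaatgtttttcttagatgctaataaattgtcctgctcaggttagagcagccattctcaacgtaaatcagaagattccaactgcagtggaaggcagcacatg

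The Nppa window holds a TATA box that begins 9 bases before the annotated start. In Nppb the TATA box begins 31 bases before the start, with a GATA motif at 84 and an MCAT motif at 105 bases before it. The Ankrd1 window holds 2 MCAT motifs, at 210 and 123 bases before the start, and a GATA motif at 47. MCAT is the motif known to bind TEAD factors, and GATA that of the cardiac GATA factors. The Amy1 window holds no match to these letters. Across the 94 of 114 higher genes with a listed promoter, 18.1% held an MCAT motif (CATTCC), beside 17.9% of the 67 listed among the 85 lower genes and 13% of 13605 listed promoters of all genes measured. The GATA motif (AGATAA) stood in 8.51%, 11.9% and 8.03% of the same groups. TATA boxes (TATAAA) stood in 11.7%, 8.96% and 10.1% of them. AP-1 motifs (TGACTCA) stood in 5.32%, 2.99% and 4.42%, and E-boxes (CACGTG) in 4.26%, 5.97% and 9%. The cAMP response element (TGACGTCA), the motif of the CREB factors downstream of cyclic AMP, stood in 2.13% of the higher genes, in 0 of the 67 lower ones and in 2.69% of all. These are counts of letters and not of bound sites.

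The array reads Gper1, the target of the knockout, through 1 probe set at percentile 24.3 of signal. Its log2 expression ran from 2.66 to 2.97 (median 2.77) on the 8 GPER KO arrays and from 2.64 to 3.11 (median 2.79) on the 8 intact arrays. The groups overlapped throughout, with a difference of -0.04 log2 (standard error 0.06, limma adjusted p = 0.921). A two-sided exact permutation test within each sex, over 4900 assignments, gave p = 0.576 (n = 8 per genotype). The difference turned to 0.00386 without female intact 421. Every value lay below the lowest array median of 3.47, where shifts may be understated. Whether the probes fall inside the deleted sequence is not known here either. The values therefore check nothing about the labels and do not show that Gper1 transcript was unchanged.

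The receptor's known pathway showed no called gene. Of 18 measured genes for estrogen receptors, G proteins, adenylyl cyclases and downstream kinases, 10 lay above and 8 below intact, with a median of 0.01 log2. Esr1, the classical estrogen receptor alpha, differed by 0.05 log2 (adjusted p = 0.862), and Egfr by -0.10 log2 (adjusted p = 0.553). Of the 15 genes on each side of Gper1 in chromosome order, 1 of 30 (3.33%, beside 1.16% of all genes) was called. That gene was Cox19, a copper chaperone used in assembling cytochrome c oxidase. Its log2 expression was 7.93 to 8.43 (median 8.14) in GPER KO and 7.60 to 7.89 (median 7.77) in intact cells. All 8 GPER KO arrays lay above all 8 intact arrays, by 0.40 log2 on average (standard error 0.06, limma adjusted p = 0.00222). It stood 4 genes before Gper1. The other neighbours ranged from -0.11 for Mrm2 to 0.11 for Gpr146.

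Load-responsive genes were the list with the highest share of called members. Of 14 measured members, 10 lay above intact and 5 (35.7%, beside 1.16% of all genes) were called, all higher. The list had a median of 0.29 log2, beside 0.00 over all genes. The called members were Nppa, Nppb, Ankrd1, Ccn2 and Tnfrsf12a. This list and the others were chosen with earlier results of these data known, which favours high shares of called members. The shares are therefore descriptions and not tests of the lists.

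Nppa encodes atrial natriuretic peptide, a hormone of strained heart muscle. Its log2 expression was 10.89 to 11.59 (median 11.36) in GPER KO and 9.48 to 10.62 (median 9.85) in intact cardiomyocytes. No GPER KO array lay as low as the highest intact array. The shift was 1.29 log2 (2.45-fold, standard error 0.16, limma adjusted p = 0.000527). Nppb encodes B-type natriuretic peptide, the partner hormone used clinically as a marker of heart failure. It ran from 10.83 to 11.65 (median 11.22) in GPER KO and from 9.86 to 10.74 (median 10.34) in intact cells, again without overlap. Its shift was 0.91 log2 (1.88-fold, standard error 0.14, limma adjusted p = 0.00300). In females alone Nppb missed the threshold (0.82 log2, limma adjusted p = 0.135), and in males alone it passed (1.0 log2, adjusted p = 0.0323). The test of the difference between the sexes called no gene.

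Ankrd1, a nuclear and sarcomeric ankyrin repeat protein induced by strain, was at 11.46 to 11.97 (median 11.88) in GPER KO and 10.40 to 11.42 (median 10.79) in intact cells. The 16 arrays separated by genotype, by 0.94 log2 (standard error 0.10, limma adjusted p = 7.95e-05). Within the intact mice the female arrays had a mean of 10.61 and the male arrays 11.17, while both GPER KO groups had means of 11.76 and 11.89. Ccn2, a matricellular protein and known target of YAP and TGF-beta, was at 8.37 to 9.58 (median 8.72) in GPER KO and 7.58 to 8.30 (median 7.89) in intact cells. It had no overlap over the 16 arrays and a shift of 0.83 log2 (standard error 0.15, limma adjusted p = 0.00679), yet missed the threshold in each sex alone. Tnfrsf12a, the receptor for TWEAK, shifted by 0.53 log2 (standard error 0.08, limma adjusted p = 0.00237), and only its ranges within each sex kept apart.

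The rest of the list did not move as 1 block. Acta1, the skeletal alpha-actin of the fetal heart, had a shift of 1.0 log2 and missed the threshold (standard error 0.24, limma adjusted p = 0.0506). Its intact arrays spread from 8.17 to 10.97 and its GPER KO arrays from 10.08 to 11.82. Csrp3, Fhl1, Fhl2 and Ankrd2 lay between -0.03 and 0.03 log2, and Rcan1, a target of calcineurin, was at 0.33 log2 (adjusted p = 0.323).

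**Figure D2:**
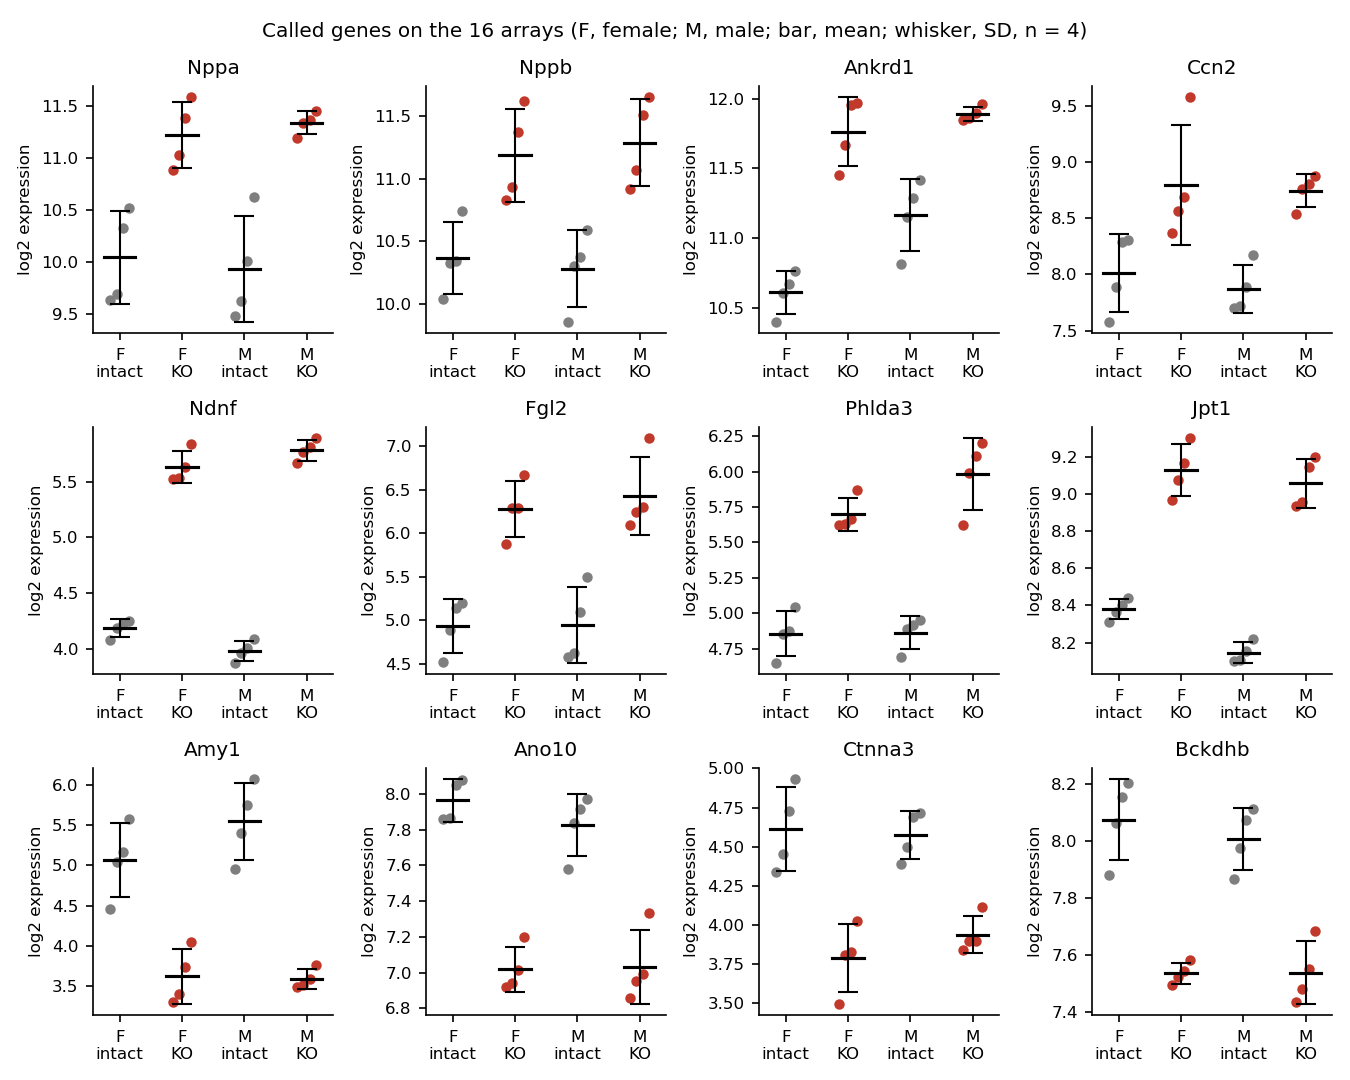
Log2 expression of 12 called genes in female (F) and male (M) intact (grey) and GPER KO (red) mice, 1 point per array, with the mean and SD of 4 arrays. Each panel has its own vertical axis, which does not start at 0. All 12 genes were chosen for having no overlap between the genotypes within either sex, which holds for 97 of the 199 called genes.

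Beta-myosin heavy chain, Myh7, is the slow myosin of the fetal ventricle, and its value turned on the probe set. The brighter of its 2 probe sets, which stood for the gene under the rule of the highest mean, was at 12.42 to 12.63 in GPER KO and 12.49 to 12.63 in intact cells. That difference was -0.03 log2 (standard error 0.04, limma adjusted p = 0.867). The dimmer probe set was at 9.68 to 10.56 (median 10.10) in GPER KO and 6.42 to 7.97 (median 7.32) in intact cells. It was higher on every GPER KO array than on any intact array, by 2.82 log2 (7.06-fold, standard error 0.20, limma adjusted p = 1.06e-06 over all 45141 probe sets). The shift was 2.78 log2 in females and 2.86 log2 in males, and it was the largest among the 329 probe sets called (0.729% of 45141). The brighter set carries the suffix that the maker of the arrays gives to probe sets matching several transcripts, and is among the brightest on the array. Which transcripts either set reads besides that of the Myh7 gene was not tested. For the dimmer set this includes any myosin sequence in the Cre construct, whose promoter is not given in the sources used here, so its rise is that of a probe set and not shown to be that of the gene. The dimmer probe set was singled out after its values were seen. Under 25 alternatives its shift stayed between 2.69 and 2.92 log2, with no adjusted p above 1.04e-05.

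**Figure D3:**
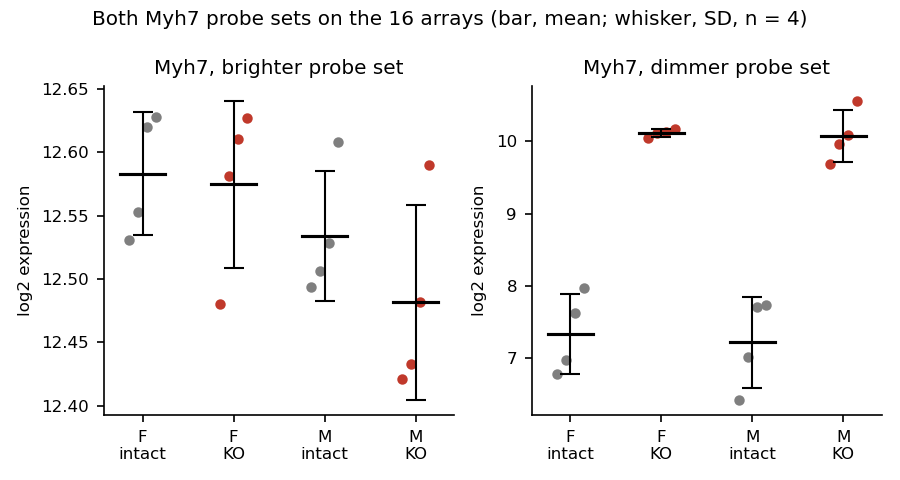
Log2 expression of both Myh7 probe sets on the 16 arrays in female (F) and male (M) intact (grey) and GPER KO (red) mice, with the mean and SD of 4 arrays and separate vertical axes that do not start at 0. The brighter set stays between 12.42 and 12.63 in all groups, whereas the dimmer set lies above 9.68 in GPER KO and below 7.97 in intact mice.

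Nppa and several list members are also made by atrial muscle, so atrial markers were read beside them. Of 8 measured atrial markers none were called, 3 lay above and 5 below intact, and the median was -0.03 log2. The mean of the list was 4.94 to 5.94 in female GPER KO, 5.44 to 6.10 in female intact, 5.48 to 6.26 in male GPER KO and 5.23 to 6.03 in male intact mice. Myl7, the atrial light chain, spread from 6.10 to 10.17 over the GPER KO arrays and from 6.54 to 9.57 over the intact ones. It differed by -1.22 log2 in females and 1.38 log2 in males, neither called. The part of atrial RNA in the rise of Nppa was not tested. The markers listed for ventricular cardiomyocytes were bright, with list means of 12.19 to 12.35 on all arrays, and none of 11 were called. Most of them are also expressed in atrial muscle, so the list does not tell the chambers apart.

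The factor with the smallest p was Ndnf, a secreted neurotrophic and angiogenic protein. It was at 5.53 to 5.89 (median 5.72) in GPER KO and 3.88 to 4.25 (median 4.09) in intact cells, a gap wider than the range of either group. The shift was 1.62 log2 (3.08-fold, standard error 0.07, limma adjusted p = 2.72e-10). A second Ndnf probe set, near the floor with a mean of 2.45, rose by 0.21 log2 and was not called (adjusted p = 0.161 over all probe sets). RefSeq's table used here lists no Ndnf promoter.

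Other genes with large rises and no overlap within either sex had varied roles. Phlda3, a p53 target that restrains AKT at the membrane, was at 5.62 to 6.20 (median 5.77) in GPER KO and 4.65 to 5.04 (median 4.88) in intact cells. Its shift was 0.98 log2 (standard error 0.08, limma adjusted p = 4.95e-06) and the genotypes did not overlap. Jpt1, a microtubule-associated protein, was at 8.93 to 9.30 (median 9.11) in GPER KO and 8.10 to 8.44 (median 8.27) in intact cells, 0.83 log2 apart (standard error 0.05, limma adjusted p = 2.49e-07). Both of its probe sets were called. Gask1b, a Golgi-associated kinase-like protein, rose by 1.02 log2, Rtn4, the endoplasmic reticulum protein Nogo, by 0.80 log2 and Pcolce, an enhancer of procollagen cleavage, by 0.82 log2. A dimmer Gask1b probe set was at 0.35 log2 and was not called (limma adjusted p = 0.407 over all probe sets). Phldb2, which anchors microtubules at adhesions, rose by 0.84 log2, but its adjusted p was 0.0547 without female intact 421 and 422, a pair left out after the data were seen.

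Phlda3 was read beside other p53 targets. Of 22 measured genes of that list, 15 lay above intact, with a median of 0.06 log2. Phlda3 and Perp (9.09%, beside 1.16% of all genes) were called, Perp at 0.30 log2 (standard error 0.06, adjusted p = 0.0147). The cell cycle inhibitor Cdkn1a was at 0.44 log2 (adjusted p = 0.277) and Mdm2, the ligase that degrades p53, at 0.15 log2 (adjusted p = 0.555). A dimmer Cdkn1a probe set was at 0.88 log2 and was not called (limma adjusted p = 0.119 over all probe sets). Aen, a nuclease induced by p53, was at 0.24 log2 (adjusted p = 0.0735), while another of its probe sets was called at 0.42 log2 (adjusted p = 0.0330 over all probe sets). The mean of the list was 5.95 to 6.06 in female GPER KO and 5.77 to 5.93 in female intact mice, without overlap, and 5.95 to 6.05 against 5.84 to 6.02 in males, with overlap.

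Inflammatory and acute phase genes leaned upward. Of 28 measured, 23 lay above intact with a median of 0.14 log2, and 6 (21.4%, beside 1.16% of all genes) were called, all higher. Fgl2, a fibrinogen-like prothrombinase, was at 5.88 to 7.09 (median 6.29) in GPER KO and 4.52 to 5.50 (median 4.99) in intact cells, without overlap. Its shift was 1.41 log2 (2.66-fold, standard error 0.17, limma adjusted p = 0.000203), and both of its probe sets were called. Lgals3, galectin 3, was at 4.58 to 6.32 (median 5.73) in GPER KO and 4.10 to 4.66 (median 4.29) in intact cells. The ranges overlapped at 1 end, and the shift was 1.25 log2 (standard error 0.22, limma adjusted p = 0.00549). Lcn2, lipocalin 2, rose by 0.82 log2 at a low mean signal of 3.42. Ccl9, a chemokine, rose by 0.60 log2 at a mean of 5.16. Serpina3n, an acute phase protease inhibitor with close paralogs, rose by 0.40 log2 and the transcription factor Myc by 0.27 log2. Under 26 alternatives the call was lost 15 times for Myc, 8 times for Ccl9 and once, with no sex term, for Serpina3n. Interferon-stimulated genes leaned the other way, with 16 of 21 below intact, a median of -0.05 log2 and none called.

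Macrophage markers moved beside the inflammatory genes. Of 23 measured markers 22 lay above intact, the median was 0.46 log2 and 5 (21.7%, beside 1.16% of all genes) were called, all higher. The mean of the list was 4.58 to 4.82 in female GPER KO and 4.33 to 4.55 in female intact mice, with no overlap. In males it was 4.77 to 5.36 in GPER KO and 4.42 to 4.95 in intact mice, with overlap. The called markers were Cd74, Lyz2, Ctss, Mpeg1 and Cd68. Cd74, the invariant chain of class II antigen presentation, rose by 0.82 log2 (limma adjusted p = 0.000630), and Lyz2, a lysozyme with the close paralog Lyz1, by 0.87 log2 (adjusted p = 0.00340). The defining receptors Csf1r and Adgre1 differed by 0.14 log2 (adjusted p = 0.614) and 0.19 log2 (adjusted p = 0.354). Class II genes, chosen after their values were seen, rose with Cd74: H2-Eb1 by 0.90 log2, H2-Aa by 0.64 log2 and H2-Ab1 by 0.59 log2. Male GPER KO 451 was lowest of its group for Lyz2, at 7.87 beside 8.77 to 8.94, and for H2-Eb1, at 5.40 beside 6.53 to 6.64. In bulk samples, a change in the number of cells of a type and in the RNA per cell cannot be told apart. Without male GPER KO 451, 231 genes were called in all and Lyz2 shifted by 0.97 log2. The part of these markers in the rise of Fgl2, Lgals3 and the other inflammatory genes was not tested.

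Matrix genes leaned upward with few calls. Of 35 genes for extracellular matrix, its proteases and TGF-beta, 30 lay above intact, with a median of 0.11 log2, and 3 (8.57%, beside 1.16% of all genes) were called. Timp1, an inhibitor of matrix metalloproteinases, was at 4.43 to 5.89 (median 5.09) in GPER KO and 3.66 to 4.16 (median 4.01) in intact cells, without overlap. It rose by 1.14 log2 (2.20-fold, standard error 0.17, limma adjusted p = 0.00186). Tenascin C, Tnc, rose by 0.25 log2 at low signal (adjusted p = 0.0186), a call lost with the mean of probe sets, and Ccn2 was also called. Col3a1, a fibrillar collagen, was at 0.95 log2 (adjusted p = 0.0929) and Postn, the fibroblast protein periostin, at 0.57 log2 (adjusted p = 0.289). Among 13 fibroblast markers 8 lay above intact and 1 was called, Fbln1, the matrix protein fibulin 1, at -0.76 log2 (standard error 0.15, adjusted p = 0.0181). That call ended without male intact 452 and with the mean of its probe sets.

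Breakdown of branched-chain amino acids and propionate was the list with most calls downward. Of 19 measured genes 16 lay below intact, with a median of -0.13 log2, and 5 (26.3%, beside 1.16% of all genes) were called, all lower. Bckdhb, a subunit of the dehydrogenase that commits branched-chain keto acids to oxidation, was at 7.43 to 7.68 (median 7.53) in GPER KO and 7.87 to 8.20 (median 8.07) in intact cells. The genotypes did not overlap, and the shift was -0.50 log2 (standard error 0.05, limma adjusted p = 5.45e-05). Mccc2, of the leucine pathway, was at 6.97 to 7.31 (median 7.18) in GPER KO and 7.31 to 7.62 (median 7.47) in intact cells, lower by -0.29 log2 (standard error 0.05, adjusted p = 0.00695). The mean of the list was 8.0 to 8.08 in male GPER KO and 8.18 to 8.35 in male intact mice, without overlap, and 8.06 to 8.13 against 8.13 to 8.27 in females, where the ranges met. Pcca and Pccb, both subunits of propionyl-CoA carboxylase, differed by -0.22 log2 (adjusted p = 0.0151) and -0.25 log2 (adjusted p = 0.0253). The Pccb call was lost under 8 of 26 alternatives and the Pcca call with the mean of probe sets. Acat1, the mitochondrial acetoacetyl-CoA thiolase, differed by -0.20 log2 (adjusted p = 0.0138). The partners of Bckdhb in its complex, Bckdha and Dbt, were at -0.25 log2 (adjusted p = 0.0983) and -0.31 log2 (adjusted p = 0.204).

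Fatty acid oxidation genes lay almost all on the low side. Of 26 measured genes 25 were below intact, with a median of -0.20 log2, and 4 (15.4%, beside 1.16% of all genes) were called, all lower and all in neither sex alone. The mean of the list was 9.78 to 9.81 in female GPER KO, 9.85 to 10.26 in female intact, 9.66 to 9.78 in male GPER KO and 9.81 to 9.98 in male intact mice. In each sex the GPER KO means lay below the intact means. Hadh, the short-chain hydroxyacyl-CoA dehydrogenase, was at 11.81 to 12.02 (median 11.95) in GPER KO and 12.08 to 12.20 (median 12.16) in intact cells. The genotypes did not overlap, although the shift was small, -0.20 log2 (standard error 0.04, limma adjusted p = 0.00695). Eci1, which handles unsaturated fatty acids, differed by -0.33 log2 (adjusted p = 0.0145) and Etfdh, which passes electrons to ubiquinone, by -0.22 log2 (adjusted p = 0.0344). The Etfdh call was lost under 13 of 26 alternatives. Acot1, an acyl-CoA thioesterase and known PPAR target, was at 4.35 to 4.89 (median 4.62) in GPER KO and 4.96 to 7.03 (median 5.46) in intact cells, lower by -1.01 log2 (standard error 0.21, adjusted p = 0.0186). Its close paralog Acot2 was at -0.55 log2 (adjusted p = 0.0540), and cross-hybridization between them could not be assessed. Acot13 alone lay above intact, at 0.08 log2.

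The remaining mitochondrial lists leaned the same way by small amounts. For pyruvate oxidation and the citric acid cycle 22 of 23 genes lay below intact (median -0.08 log2), and none were called. For respiratory complex I the count was 28 of 32 (median -0.05 log2) with none called, and for complexes II to V 35 of 40 (median -0.05 log2). Sdhc, a membrane anchor of succinate dehydrogenase, was the 1 called gene of those complexes (2.5%, beside 1.16% of all genes), lower by -0.17 log2 (standard error 0.03, adjusted p = 0.0117). Mitochondrial ribosomal proteins were split, with 49 of 73 below intact and only Mrps9 called (-0.24 log2, adjusted p = 0.0367). Mrps9 lost its call under 15 of 26 alternatives. Some uncalled members had another probe set that was called over all 45141 probe sets. These were Ogdh of the citric acid cycle (-0.39 log2, adjusted p = 0.00657), Ndufs4 of complex I (-0.41 log2, adjusted p = 0.0301) and Mrps23 of the mitochondrial ribosome (0.24 log2, adjusted p = 0.0377). In fatty acid oxidation the same held for Decr1 (-0.30 log2, adjusted p = 0.00752) and for 2 further probe sets of Acaa2 (-0.26 and -0.24 log2). Ech1, an enzyme of unsaturated fatty acid oxidation outside the lists, was also lower, by -0.17 log2 (adjusted p = 0.0112), with no overlap. It was named after its values were seen.

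**Figure D4:**
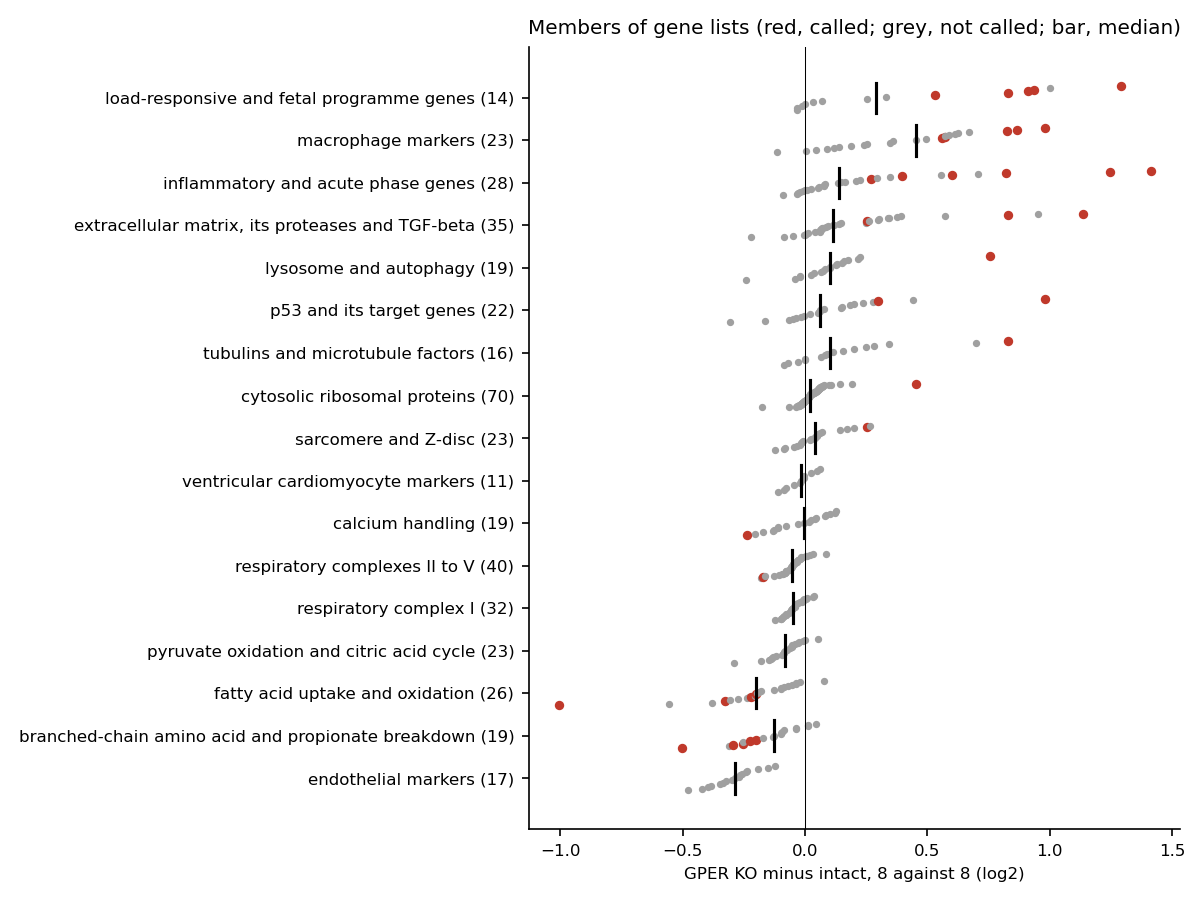
Genotype effect over 8 against 8 arrays (log2, horizontal axis) of the measured members of 17 gene lists, 1 point per gene, with called genes in red and the median as a bar; the number of members stands in brackets. Load-responsive genes (median 0.29) and macrophage markers (0.46) lie to the right, and endothelial markers (-0.28), fatty acid oxidation (-0.20) and branched-chain amino acid breakdown (-0.13) to the left.

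Endothelial markers also lay low. All 17 measured were below intact with a median of -0.28 log2, and none were called; Cdh5, the endothelial cadherin, was lowest at -0.48 log2 (adjusted p = 0.310). Their mean was 5.87 to 6.32 in female GPER KO, 6.10 to 6.55 in female intact, 5.89 to 6.43 in male GPER KO and 6.08 to 6.84 in male intact mice, with overlap in both sexes. Fabp4 and Cd36, which take part in fatty acid handling, are abundant in endothelium too. They were at -0.42 log2 (adjusted p = 0.295) and -0.05 log2 (adjusted p = 0.931). The part of endothelial RNA in the lower genes was not tested. Neutrophil, B cell, T and NK cell, adipocyte, nerve, erythroid and epicardial markers had no called gene. Their medians ran from -0.14 log2 (erythroid) to 0.05 log2 (epicardial).

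The largest fall was that of Amy1, an amylase gene. It was at 3.30 to 4.05 (median 3.55) in GPER KO and 4.46 to 6.07 (median 5.29) in intact cells, without overlap. The shift was -1.71 log2 (3.26-fold, standard error 0.17, limma adjusted p = 4.82e-05). The amylase genes are close copies, and reads of its relatives by this probe set could not be assessed. Ano10, an anoctamin membrane protein, was at 6.86 to 7.33 (median 6.97) in GPER KO and 7.58 to 8.08 (median 7.89) in intact cells, lower by -0.87 log2 (standard error 0.07, limma adjusted p = 4.95e-06). Exoc2, a subunit of the exocyst that tethers vesicles, was at 4.59 to 5.16 (median 4.84) in GPER KO and 5.57 to 5.78 (median 5.73) in intact cells, lower by -0.84 log2 (standard error 0.07, adjusted p = 4.95e-06). Neither gene overlapped between the genotypes. Another exocyst subunit, Exoc4, went the other way, 0.30 log2 higher (adjusted p = 0.00986).

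Further falls without overlap over the 16 arrays were those of Ssbp2 (-0.81 log2), a single-strand DNA binding cofactor, Dcakd (-0.80 log2), which resembles dephospho-CoA kinases, and Ttll1 (-0.66 log2), which adds glutamate to tubulin. Another Ttll1 probe set was called at -0.40 log2. A further one lay at -0.02 log2 and was not called (limma adjusted p = 0.985 over all probe sets). Ctnna3, the alpha-T-catenin of the cardiac intercalated disc, was at 3.49 to 4.11 (median 3.87) in GPER KO and 4.34 to 4.93 (median 4.59) in intact cells. It was lower by -0.73 log2 (standard error 0.09, limma adjusted p = 0.000388) and was the only called gene of 12 intercalated disc genes (8.33%, beside 1.16% of all genes), whose median was 0.02 log2. Maob, a mitochondrial monoamine oxidase, was lower by -0.66 log2 and Dpyd, which degrades pyrimidines, by -0.69 log2. Of the 3 Dpyd probe sets, 1 dim set lay at 0.04 log2. Hdlbp, an RNA binding protein, was lower by -0.38 log2, and Mal, a membrane raft protein, was 0.55 log2 higher. Both were called in each sex alone and were named after their values were seen.

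Dmd, the dystrophin gene, had the second largest fall of the called genes, -1.56 log2, with a call that many settings ended. Its arrays were at 3.43 to 5.46 (median 4.68) in GPER KO and 4.69 to 7.38 (median 5.91) in intact cells, with overlap (standard error 0.35, limma adjusted p = 0.0363). The effect was -0.85 log2 in females (adjusted p = 0.448) and -2.26 log2 in males (adjusted p = 0.0269). A second probe set shifted by -0.98 log2 and the remaining one by 0.03 log2, and the call was lost under 15 of 26 alternatives, 13 of which left out a single array. No other gene of 17 in the dystrophin complex and costamere was called (5.88% of the list beside 1.16% of all genes, median -0.02 log2).

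Contractile and calcium handling genes moved little. Of 23 sarcomere and Z-disc genes only desmin, Des, was called, 0.25 log2 higher (standard error 0.05, adjusted p = 0.0199), and its call ended with the mean of its probe sets and without female GPER KO 426 or male intact 452. Of 19 calcium handling genes only Jph1, a junctophilin outside the main cardiac form, was called, at -0.24 log2 (adjusted p = 0.0392). Jph1 lost its call under 14 of 26 alternatives. None of 14 channel genes were called. Among 70 cytosolic ribosomal proteins Rpl3 alone was called, at 0.45 log2 (adjusted p = 0.0118), besides a further Rpl13 probe set (0.40 log2, adjusted p = 0.0188 over all probe sets), of 16 tubulin and microtubule genes Jpt1, of 18 antioxidant genes Gpx1 (0.42 log2, adjusted p = 0.0341) and of 19 lysosomal genes Ctsz (0.76 log2, adjusted p = 0.00340). Gpx1 lost its call under 11 of 26 alternatives. Immediate early genes lay low in 19 of 21 cases (median -0.11 log2) with none called, and none were called among unfolded protein response, clock or heat shock genes.

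The 99 genes called over 16 arrays but in neither sex alone had a median absolute shift of 0.30 log2, from 0.17 to 1.02, beside 0.46 log2 for genes also called in a sex. For 1 of the 99, Borcs7, the difference between the sexes had an unadjusted p under 0.05 (-0.49 log2 in females, -0.18 in males). The same held for 34 of the 199 called genes and 11% of all genes. Selection on the shared effect with no call in either sex favours a small difference, so this count does not test it. Tnfrsf12a, which had the smallest p of the higher genes in this class, shifted by 0.53 log2 in each sex. Its adjusted p from limma was 0.0762 in females and 0.0512 in males. Its standard error was 0.12 within a sex and 0.08 over all arrays. Among the higher genes, Ptpre, a receptor phosphatase, was at 4.72 to 4.98 (median 4.86) in GPER KO and 4.44 to 4.63 (median 4.60) in intact cells. That shift of 0.27 log2 separated all 16 arrays (standard error 0.04, limma adjusted p = 0.00383). Snap91, a clathrin adaptor protein, rose by 0.57 log2, Parm1, a membrane protein of cardiac muscle, by 0.48 log2 and Atp6v0e2, a subunit of the vacuolar proton pump, by 0.72 log2.

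Among the lower genes of that class, Rtn2, a reticulon of the endoplasmic reticulum, was at 7.91 to 8.52 (median 8.30) in GPER KO and 8.56 to 8.89 (median 8.68) in intact cells. It was lower by -0.42 log2 (standard error 0.07, limma adjusted p = 0.00617) and did not overlap. Pank1, which starts the synthesis of coenzyme A, was lower by -0.28 log2, Asb14, a ubiquitin ligase adaptor, by -0.31 log2 and Mpped2, a phosphodiesterase, by -0.29 log2. Egflam, the synaptic matrix protein pikachurin, was lower by -0.69 log2 (standard error 0.12, adjusted p = 0.00479) and Bcl7a, a chromatin remodelling subunit, by -0.32 log2 in 1 of 4 probe sets. Fah, of tyrosine breakdown (-0.49 log2), Tesc, a calcium binding protein (-0.53 log2), Ephx1, an epoxide hydrolase (0.76 log2), and Nt5e, which makes adenosine (0.66 log2), belong to it too and were named after their values were seen. Of 26 alternatives, 14 ended the call of Fah, 15 that of Ephx1, 16 that of Nt5e and 18 that of Borcs7, most by leaving out a single array. In this class the lower genes were 55 of 99 (0.322% of all genes), beside 44 higher (0.257%).

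**Figure D5:**
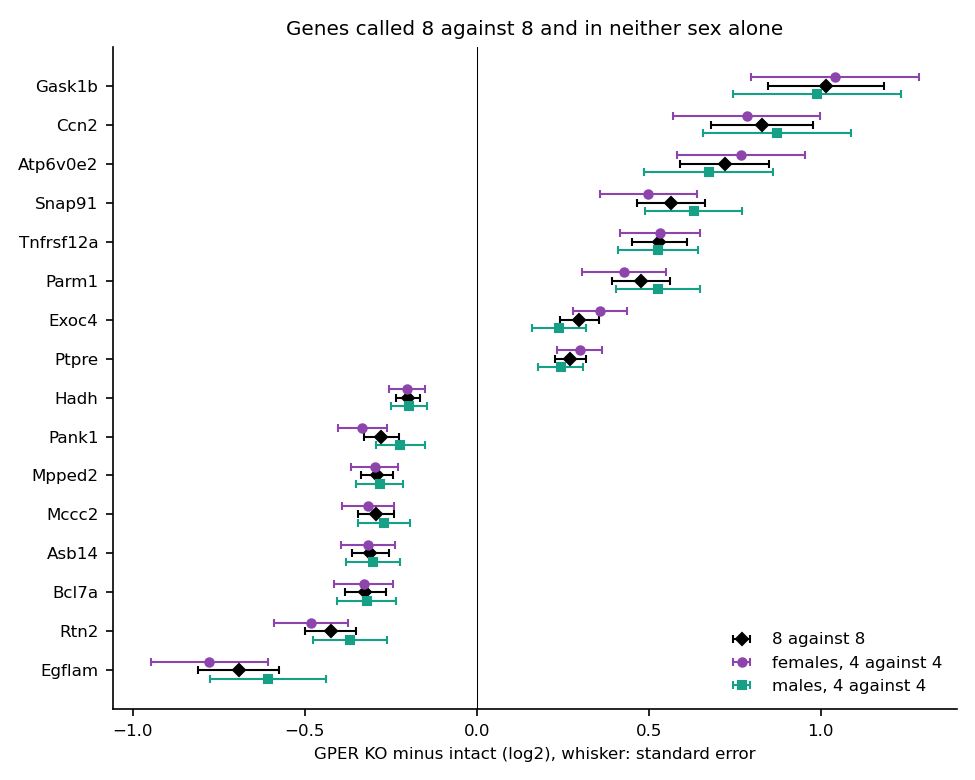
Genotype effect (log2, horizontal axis) with its standard error for 16 genes called over 8 against 8 arrays and in neither sex alone, estimated over all arrays (black), in females (purple) and in males (green). In each of the 16 genes both single-sex estimates have the sign of the shared one, and the shared whisker is shorter. Choosing the genes by the p of the shared effect favours equal signs, and more arrays give a shorter whisker.

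Separation of the arrays gave a view that needs no model. In 39 genes (0.228%) all 8 GPER KO arrays lay above all 8 intact arrays, and in 27 genes (0.158%) all lay below. Of these 66 genes 61 were called; the other 5 were Ap3b1 (0.18 log2), Taf9 (0.14 log2), Tpd52 (0.25 log2), Cdk16 (-0.19 log2) and Htra2 (-0.25 log2), with adjusted p from 0.0506 to 0.103. Within each sex separately, 65 genes (0.38%) had all GPER KO arrays higher and 50 (0.292%) all lower, and 97 of these were called. The median percentile of signal of the called genes, among all 45141 probe sets, was 86.4. Each gene stood by its brightest probe set, which favours a high percentile. The median over all genes tested is not given here, so the value does not set the called genes apart. Of the 199 called genes, 5 sat under percentile 40 of signal: Acsm5, Amph, Hs3st5, Tmem150c and Mmp12, of which Hs3st5 lost its call under 17 of 25 alternatives.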

How the data were processed

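RNA of ventricular cardiomyocytes from 16 mice was hybridized to the MG-430 PM array of Affymetrix, with 1 array per mouse. The values deposited by the authors are log2 expression per probe set, and the processing notes of the submitters name RMA and Partek with no version. RMA as usually run corrects background, quantile normalizes and summarizes probes, which fixes the overall level of each array (medians 3.47 to 3.51) and compresses folds at low signal. Correlations between arrays were 0.982 to 0.997. Scanner signals were not used here, and the number of arrays limits the precision.

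Of 45141 probe sets, 28898 had 1 gene symbol in the platform annotation, 551 several and 15692 none, and symbols were updated by Entrez identifier through the RefSeq table of GRCm38.p6 (28689 matched). Of 17097 genes, 7180 had more than 1 probe set, of which the brightest on average stood for the gene. A linear model of genotype plus sex was fitted with limma 3.58.1 in R 4.3.3 (lmFit, eBayes), and effects within a sex and their difference from 4 group means. Adjusted p-values are Benjamini-Hochberg over 17097 genes with a threshold of 0.05. The fit was tested on simulated data. No table column of per-sample values was left unused.

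The text names Gper1, up to 12 genes per direction with the largest shift and no overlap within either sex, up to 8 per direction called in neither sex, up to 4 called or 2 uncalled members of each of 38 lists (25 functions, 13 marker lists), and 5 neighbours of Gper1. The members and lists were chosen with earlier results of these data known, and all other genes were named after their values were seen.

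Alternatives were the mean of probe sets, a filter keeping genes above percentile 40 on at least 8 arrays, quantile normalization again, median centring, no sex term, 4 group means, array weights, trend and robust moderation, a block of neighbouring animal numbers, every probe set, each sex fitted alone, an exact permutation test for Gper1 and each array left out in turn. Leaving out female intact 421 and 422 together was added after seeing the data. Array strips and processing days are not given in the sources used here, so no batch could be examined.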

Additional observations from a re-analysis of the deposited data

Results flagged for a closer look

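In 27 of 756 groups of 4 arrays looked at, over 151 genes and 38 list means, 1 array stood far from the other 3 of its group (3.57 per 100), and chance alone flags about 1 in 20 groups. Values are log2. Male GPER KO 451 was lowest of its group for Lyz2 (7.87), Cd74 (6.10) and H2-Eb1 (5.40), and highest for Exoc2 (5.11). Male intact 453 was highest for the macrophage markers Lyve1 (4.81), F13a1 (6.70) and Mrc1 (5.41) and lowest for Exoc2 (5.65). Female intact 421 was highest for Gper1 (3.11) and F13a1 (5.88). Male intact 430 was highest for Acat1 (10.99), lowest for Taf9 (8.04) and Ephx1 (5.63), and had the lowest mean of the unfolded protein response list (6.87). Male intact 433 had the lowest mean of the load-responsive list (9.19), and male intact 452 the lowest Ptpre (4.44).

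Male GPER KO 444 was lowest for Exoc4 (7.26), for Pank1 (7.26) and for the mean of the clock list (5.13). Male GPER KO 432 was highest for Tnc (3.44) and Alas2 (4.33) and lowest for Mrm2 (4.26). Female GPER KO 419 was highest for Ndufs4 (9.76) and lowest for Borcs7 (4.05), female GPER KO 426 highest for Krt18 (3.74), female GPER KO 417 lowest for Mdm2 (6.44) and female intact 425 lowest for Pank1 (7.38).

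Among 16243 probe sets without a single gene symbol, which the comparisons do not use, 68 were called (0.419%, limma with adjustment over these probe sets), 38 higher and 30 lower in GPER KO.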

How the results depend on the processing

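Left out in turn, the 16 arrays gave 137 called genes (without male intact 452) to 238 (without female intact 422), beside 199 with all arrays. Higher genes numbered 86 to 152, lower genes 51 (without male intact 452) to 104, and genes called in neither sex alone 78 to 141. In females alone 20 (without female intact 421) to 159 (without female intact 425) were called, and in males 53 (without male intact 430) to 120. Array weights gave 307 called genes, 189 higher and 170 in neither sex alone. With every probe set tested for itself, 329 of 45141 probe sets (0.729%) were called, beside 1.16% of genes in the main fit. The other settings gave 171 called genes (no sex term) to 234 (a block of neighbouring animal numbers). Leaving out female intact 421 and 422 together, chosen after seeing the data, gave 258. The cause of these moves was not tested.

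The Gper1 difference ran from -0.060 to 0.00386 (without female intact 421) and was 0.0065 without 421 and 422. The median of the load-responsive list was 0.46 with the mean of probe sets, and without 421 and 422 that of branched-chain amino acid breakdown was -0.20 and of calcium handling -0.082. The Myh7 difference turned to 1.40 with the mean of probe sets (limma adjusted p = 1.03e-06) and to 0.0083 with quantile normalization again. Single arrays left out turned the sign of Myl4 (-0.24 to 0.29) and Myl7 (-0.24 to 0.39), neither called. No paired analysis was possible because each animal number occurs once and pairs no mice across groups. Scanner signals were not used, so signal over background was not known and dim probe sets may understate shifts.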
